A study of Mus musculus with 15 samples.

Results

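*Sox8*, *Sox9* and *Sox10* are the 3 SoxE genes, and they were the 3 of 17090 genes chosen here, each by its symbol and its single transcript, which carried the authors' mark for the best transcript of a gene. All 3 passed the filter on low counts at both ages. RNA was sequenced from enteric neural crest–derived cells (ENCDC), the migrating cells that build the enteric nervous system (ENS), after flow sorting from single fetal mouse organs of mixed genetic background. The question was how gene expression in ENCDC changes when retinoic acid receptor (RAR) signaling is blocked within these cells by RarαDN, a dominant-negative RARα that is made after Cre-mediated recombination. E11.5 stomach ENCDC came from 4 Wnt1Cre; ROSA26TdTomato embryos (control) and 4 Rar[alpha]DNLoxP/+; Wnt1Cre; ROSA26TdTomato embryos, sorted by TdTomato. E13.5 colon ENCDC came from 4 RETCreERT2-EYFPTandem embryos (control) and 3 RarαDN embryos of the same driver, sorted by EYFP after tamoxifen at E10.5. Every embryo, controls included, thus carried a Cre driver and a reporter, and no control carried the RarαDN allele. Each library came from the cells of a single embryo's organ, so the p-values measure the spread between embryos together with that of the amplification. Wnt1Cre recombines in parts of the central nervous system and in many neural crest derivatives. CreERT2 in the *Ret* locus instead marks cells that express *Ret* when tamoxifen is given, together with the cells descended from them. In the colon, the authors also found cells of this lineage that carried the erythroid marker TER119 and CD31. The 2 experiments differed in age, in organ and in the driver with its reporter, which cannot be told apart.

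SoxE proteins are high-mobility-group transcription factors that bind the same core DNA motif. SOX10 keeps enteric progenitors multipotent and alive, and is later retained in enteric glia and lost from neurons. Loss of 1 *Sox10* copy causes distal bowel aganglionosis in mice and is a cause of Waardenburg-Hirschsprung disease in people. SOX8 is coexpressed with SOX10 in enteric progenitors and in mice acts as its modifier. SOX9 is switched on when neural crest cells form, drives cartilage differentiation, and is also made by many cells outside the crest, gut epithelium and mesenchyme among them.

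Library totals were 6065029 to 12121327 counts. Pearson's r of log2 CPM (CPM is the standard depth-scaled count, a gene's counts relative to its library's total) across genes was 0.928 to 0.977 between E11.5 control libraries and 0.852 to 0.882 between E11.5 RarαDN libraries. It was 0.867 to 0.882 between E13.5 control and 0.939 to 0.955 between E13.5 RarαDN libraries. *Ret*, the receptor gene that marks migrating ENCDC, had 1167 ± 621 CPM in E11.5 control and 91.7 ± 114 CPM in E11.5 RarαDN libraries (n = 4 each, adjusted p = 0.191 by edgeR). It did not pass the test, but its log2 fold change was -3.66 (95% interval -6.84 to -0.48). Every RarαDN library (at most 235 CPM) lay below every control library (at least 442 CPM), as for 8.96% of genes tested at E11.5. At E13.5 the level of *Ret* was 294 ± 50.1 CPM without RarαDN (n = 4) and 291 ± 109 CPM with it (n = 3, adjusted p = 0.985 by edgeR). E13.5 control libraries 2 and 3 held 833.5 and 5066 CPM of hemoglobin transcripts, against 0.346 to 96.9 CPM in the other 13 libraries. In libraries of sorted pools, fewer cells of a type and less RNA per cell cannot be told apart.

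*Sox9* was the SoxE gene that passed the main edgeR test of RarαDN-expressing against control ENCDC, in opposite directions at the 2 ages. In E11.5 stomach control ENCDC, *Sox9* had 16.1, 9.17, 14.2 and 16.7 CPM in replicates 1 to 4. In E11.5 RarαDN-expressing ENCDC it had 26.4, 200.2, 132 and 131 CPM. All 4 RarαDN libraries lay above all 4 control libraries, with replicate 1 far below the other 3. The means were 14.0 ± 3.42 (SD, n = 4) and 122 ± 71.7 CPM (n = 4), 8.70-fold higher with RarαDN (log2 fold change, log2FC, of 3.12, standard error 0.52, 95% interval 1.98 to 4.26, adjusted p = 0.00606 by edgeR). Of 12427 genes tested, 3.07% were called higher, and 6.71% had every RarαDN library above every control library. *Sox9* ranked 179 by p. The call held with each library left out in turn (log2FC 2.78 to 3.51, adjusted p 0.000113 to 0.0271).

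In E13.5 colon, *Sox9* had 21.7, 18.6, 17.8 and 13.3 CPM in control ENCDC. The 3 RarαDN libraries had 0.159, 1.91 and 2.53 CPM, which were 1, 17 and 27 counts. The single count of replicate 1 has an exact Poisson interval of 0.00403 to 0.887 CPM, which covers counting error only, and the highest RarαDN library was still far below the lowest control library. The means were 17.8 ± 3.47 CPM (n = 4) and 1.53 ± 1.23 CPM (n = 3), 11.3-fold lower with RarαDN (log2FC -3.49, standard error 0.75, 95% interval -5.17 to -1.82, adjusted p = 0.0213 by edgeR). Of 12085 genes tested, 5.55% were called lower, and 13.3% had every RarαDN library below every control library. *Sox9* ranked 496 by p. The call was lost without control replicate 3 (log2FC -3.50, adjusted p = 0.0532) and without RarαDN replicate 1 (-2.99, 0.0631), 2 (-3.66, 0.0828) or 3 (-4.03, 0.0521). It was also lost without both hemoglobin-rich control libraries (-3.44, adjusted p = 0.110). *Sox9* had 21.7 and 13.3 CPM in the other 2 control libraries, and the cause of the lost call was not tested.

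An interaction term tested whether the effect of RarαDN on *Sox9* differed between ages. The log2 fold change at E13.5 minus that at E11.5 was estimated at -6.65 (standard error 0.86, 95% interval -8.45 to -4.84, adjusted p = 0.000155 by edgeR). Such a difference was called for 14.5% of 13412 genes. Of 11644 genes tested at both ages, 49 (0.421%) were called higher at E11.5 and lower at E13.5, and *Sox9* was 1 of them. On 1 scale for all 15 libraries, *Sox9* was 24.9 to 191 CPM in E11.5 RarαDN, 13.9 to 22.8 CPM in E13.5 control, 8.72 to 15.5 CPM in E11.5 control and 0.166 to 2.66 CPM in E13.5 RarαDN libraries. The control groups of the 2 ages are neighbors in that order and overlap, whereas each RarαDN group lay outside them.

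**Figure D1:**
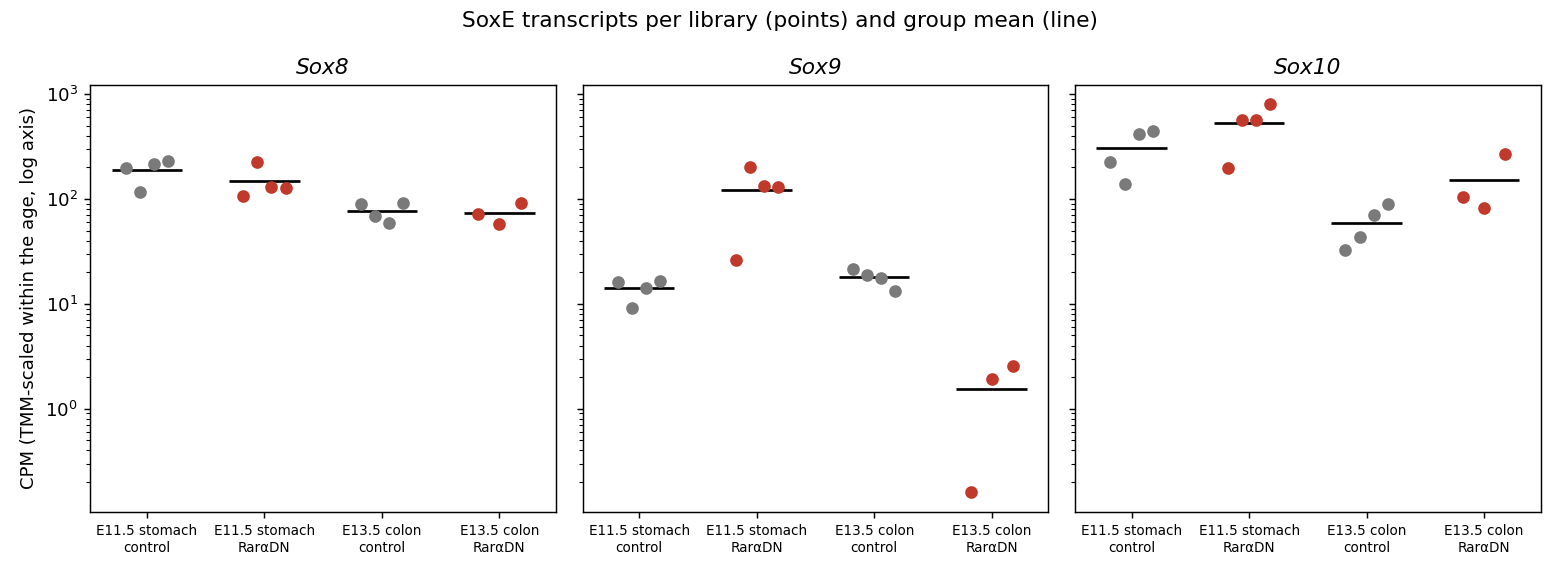
CPM of *Sox8*, *Sox9* and *Sox10* (log axis, TMM-scaled within each age) in each library (points; gray, control; red, RarαDN) with the group mean (line). *Sox9* separates the groups at both ages, above control at E11.5 (26.4 to 200.2 against 9.17 to 16.7 CPM) and below it at E13.5 (0.159 to 2.53 against 13.3 to 21.7 CPM), whereas the groups overlap for *Sox8* and *Sox10*.

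*Sox10*, the gene whose protein maintains enteric progenitors, was the most abundant SoxE transcript per length at E11.5 and did not pass the test at either age. In E11.5 control ENCDC, *Sox10* had 226, 139, 416 and 448 CPM. In E11.5 RarαDN-expressing ENCDC it had 197, 568, 573 and 800.2 CPM. Of the RarαDN libraries, 3 lay above all controls and replicate 1 lay within their range. The means were 307 ± 149 CPM (n = 4) and 535 ± 249.7 CPM (n = 4), and the log2 fold change was 0.80 (standard error 0.44, 95% interval -0.16 to 1.76, adjusted p = 0.355 by edgeR).

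At E13.5, *Sox10* had 33, 43.6, 70.2 and 89.1 CPM in control ENCDC, and 105, 81.6 and 268 CPM in RarαDN-expressing ENCDC. Replicate 2 of RarαDN lay below the highest control, so the groups overlapped. The means were 59.0 ± 25.5 CPM (n = 4) and 151 ± 101 CPM (n = 3), and the log2 fold change was 1.36 (standard error 0.44, 95% interval 0.39 to 2.33). The edgeR adjusted p was 0.0857. At E13.5, 2.78% of genes were called higher and 12.7% had every RarαDN library above every control library, and *Sox10* was among neither. It was among the genes called by DESeq2 (log2FC 1.32, adjusted p = 0.0139) and by edgeR once the trend with transcript GC content was removed from each library (1.76, adjusted p = 0.0126). Without RarαDN replicate 3, the log2 fold change was 0.66 (adjusted p = 0.391 by edgeR). The fold changes of *Sox10* at the 2 ages differed by 0.50 (standard error 0.67, 95% interval -0.92 to 1.92, adjusted p = 0.669 by edgeR), which leaves a difference of either sign possible.

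*Sox8*, the modifier of *Sox10*, had the narrowest intervals of the 3 genes. In E11.5 control ENCDC, *Sox8* had 197, 117, 216 and 229.6 CPM, and in E11.5 RarαDN-expressing ENCDC it had 107, 225, 131 and 128 CPM. RarαDN replicate 1 lay below all controls, and the other 3 lay within the control range. The means were 189.8 ± 50.1 CPM (n = 4) and 148 ± 52.7 CPM (n = 4), and the log2 fold change was -0.36 (standard error 0.28, 95% interval -0.98 to 0.26, adjusted p = 0.539 by edgeR). At E11.5, 2.93% of genes were called lower and 8.96% had every RarαDN library below every control library. At E13.5, *Sox8* had 89.3, 69.2, 58.5 and 92.2 CPM in control ENCDC and 72.1, 57.7 and 90.8 CPM in RarαDN-expressing ENCDC, so the groups covered nearly the same range. The means were 77.3 ± 16.2 CPM (n = 4) and 73.5 ± 16.6 CPM (n = 3), and the log2 fold change was -0.07 (standard error 0.23, 95% interval -0.59 to 0.45, adjusted p = 0.894 by edgeR). These intervals do not hold a fall of *Sox8* beyond 0.98 on the log2 scale at E11.5 or beyond 0.59 at E13.5, and leave smaller changes of either sign possible. The fold changes of *Sox8* at the 2 ages differed by 0.24 (standard error 0.38, adjusted p = 0.728 by edgeR). In the GENCODE M21 annotation (GRCm38), *Sox8* on chromosome 17 overlaps the antisense gene *2810468N07Rik*, and no step of the library preparation is stated to keep strand, so reads of this pair cannot be told apart. *2810468N07Rik* had 86.8 ± 23.6 CPM in E11.5 control and 44.4 ± 14.0 CPM in E11.5 RarαDN libraries (n = 4 each, log2FC -0.97, adjusted p = 0.0860 by edgeR), and 66.7 ± 7.46 (n = 4) and 74.2 ± 4.16 CPM (n = 3) at E13.5 (0.15, 0.676). No annotated gene overlaps *Sox9* on chromosome 11 or *Sox10* on chromosome 15.

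**Figure D2:**
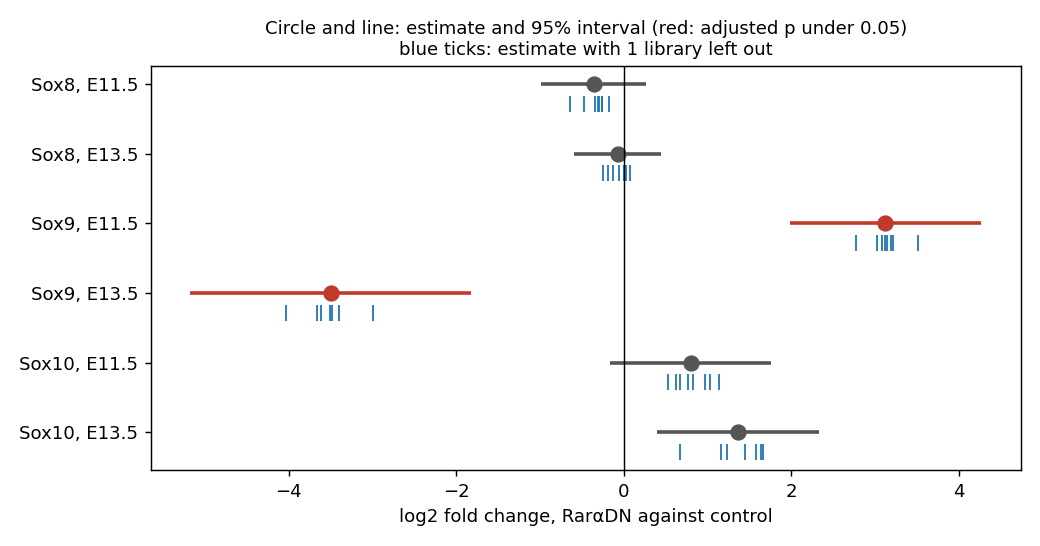
Log2 fold change of each SoxE gene at each age (circle) with its 95% interval (line; red where the edgeR adjusted p is under 0.05), and the estimates with each library left out in turn (blue ticks). Only *Sox9* is called, at 3.12 in E11.5 stomach and -3.49 in E13.5 colon ENCDC, and no left-out library turned either sign.

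Levels of the 3 genes were set side by side per kilobase (kb) of transcript (3000 bases for *Sox8*, 4135 for *Sox9* and 2713 for *Sox10*). In E11.5 control ENCDC, the level was 106 ± 50.8 CPM per kb for *Sox10*, 59.5 ± 15.3 for *Sox8* and 3.19 ± 0.755 for *Sox9*. *Sox10* exceeded *Sox8* in each of these 4 libraries, by 1.27 to 2.16 times. In E13.5 control ENCDC, *Sox8* at 27.5 ± 5.02 CPM per kb and *Sox10* at 23.3 ± 9.87 did not differ beyond their spread, and the ratio of *Sox10* to *Sox8* was 0.408, 0.696, 1.33 and 1.07 in replicates 1 to 4. In every RarαDN library of both ages, *Sox10* exceeded *Sox8*, by 2.04 to 6.89 times at E11.5 and 1.56 to 3.26 times at E13.5. At E13.5, the ratio was thus higher in each RarαDN library than in each control library, whereas at E11.5 RarαDN replicate 1 (2.04) lay within the control range. These ratios were not tested.

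As a share of the summed SoxE level per transcript length, *Sox9* made up 2.02 ± 0.527% in E11.5 control libraries and 9.96 ± 3.82% in E11.5 RarαDN libraries (n = 4 each). At E13.5 it made up 8.73 ± 2.81% in control (n = 4) and 0.487 ± 0.434% in RarαDN libraries (n = 3). The *Sox9* shares of control and RarαDN libraries did not overlap at either age (1.5 to 2.55% against 5.56 to 14.5%, and 4.81 to 11.1% against at most 0.929%). *Sox10* made up 61.1 ± 7.02%, 69.9 ± 8.27%, 41.0 ± 12.1% and 66.1 ± 8.77% in E11.5 control, E11.5 RarαDN, E13.5 control and E13.5 RarαDN libraries. *Sox8* made up 36.9 ± 6.50%, 20.1 ± 8.63%, 50.3 ± 10.2% and 33.5 ± 8.74% in the same order. The share of *Sox8* was lower in each E13.5 RarαDN library than in each E13.5 control library, by a narrow margin (at most 38.6% against at least 39.3%), while its own CPM overlapped. The summed SoxE level itself was 169 ± 65.4 CPM per kb in E11.5 control, 264 ± 110 in E11.5 RarαDN, 55.5 ± 9.96 in E13.5 control and 84.5 ± 45.2 in E13.5 RarαDN libraries, and it overlapped between control and RarαDN at both ages.

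**Figure D3:**
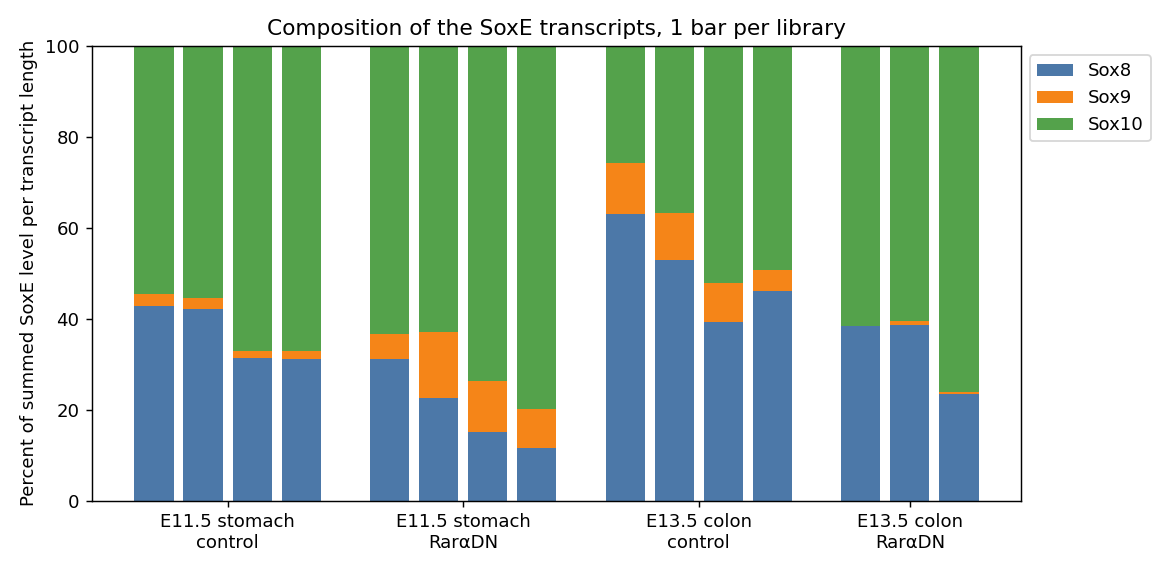
Share of *Sox8* (blue), *Sox9* (orange) and *Sox10* (green) in the summed SoxE level per transcript length, 1 bar per library, in percent. The *Sox9* band is wider with RarαDN at E11.5 (9.96 against 2.02% on average) and nearly absent with RarαDN at E13.5 (0.487 against 8.73%).

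Within groups, the 3 genes differed in spread. The coefficient of variation was 20.9 to 35.6% for *Sox8*, 43.2 to 67.1% for *Sox10* and 19.5 to 80.2% for *Sox9*, whose value was lowest in the E13.5 control libraries. RarαDN replicate 1 of E11.5 stomach was the lowest of its group for all 3 genes (26.4 CPM of *Sox9*, 197 of *Sox10* and 107 of *Sox8*). E13.5 RarαDN replicate 3 was the highest of its group for all 3. After each group's mean was subtracted, Pearson's r of log2 CPM over the 15 libraries was 0.582 between *Sox8* and *Sox10*, 0.522 between *Sox9* and *Sox10* and 0.455 between *Sox8* and *Sox9*. These values describe libraries that also share depth and base composition.

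The *Sox10* transcript is rich in G and C (61.7%, at percentile 97.6 of the genes kept over the 4 groups, whose median is 50.5%), whereas *Sox8* has 54.2% and *Sox9* 49.3%. For each library, the slope of all genes' deviations from their group mean on transcript GC content was computed. The deviation of *Sox10* from its group mean had an r of 0.813 with this slope (n = 15 libraries), against 0.419 for *Sox8* and 0.423 for *Sox9*. The 2 libraries with the steepest positive slopes, E13.5 RarαDN replicate 3 and E11.5 RarαDN replicate 4, were also the highest for *Sox10* in their groups. In a fit with the GC trend removed from each library, the log2 fold change of *Sox10* became 0.45 at E11.5 (adjusted p = 0.592) and 1.76 at E13.5 (adjusted p = 0.0126 by edgeR). For *Sox9*, the same fit gave 3.26 at E11.5 (adjusted p = 0.00376) and -3.64 at E13.5 (adjusted p = 0.0188 by edgeR).

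**Figure D4:**
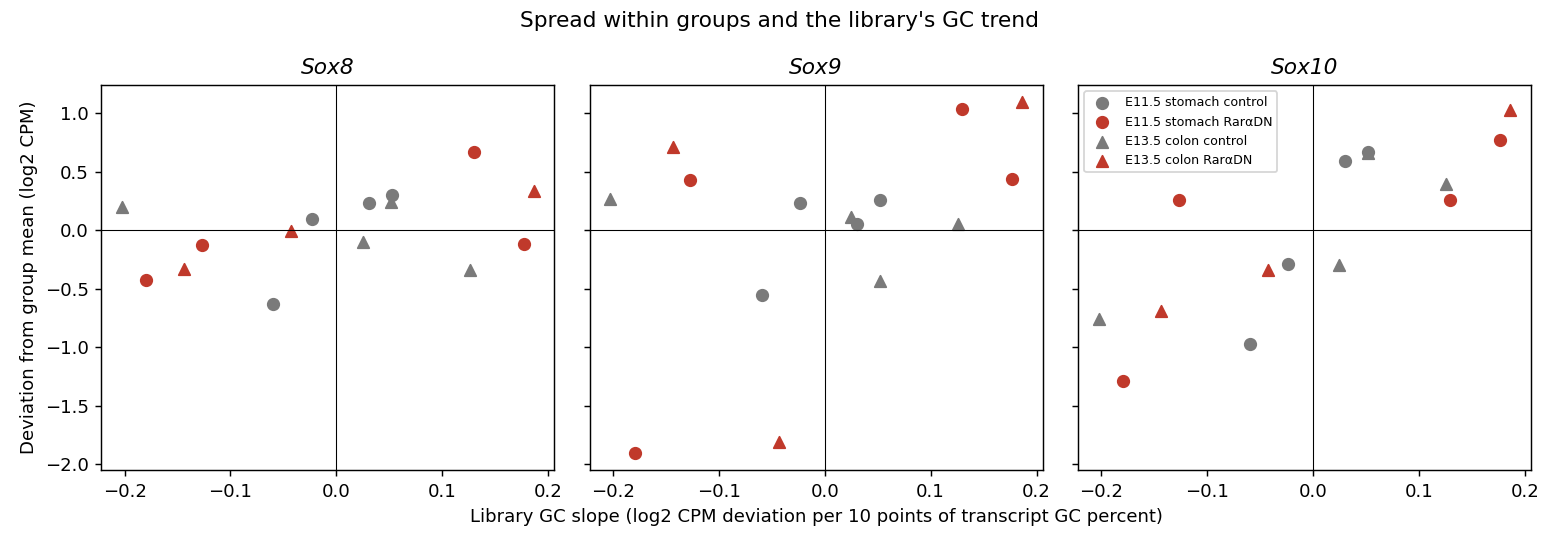
Deviation of each SoxE gene from its group mean in each of the 15 libraries (log2 CPM, vertical) against the slope of that library's deviations over all genes on transcript GC content (horizontal, log2 CPM per 10 percentage points). The points of *Sox10* follow the slope most closely (r = 0.813), while the points of *Sox8* (0.419) and *Sox9* (0.423) are more scattered.

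Among the other Sox genes, 13 of a list of 16 were in the table. At E11.5, 0 of 7 tested passed the edgeR test, against 3.07% of all genes tested called higher and 2.93% lower, although 5 had an unadjusted p under 0.05, and DESeq2 called 2, limma-voom 0 and limma-voom with quality weights 3 (median log2FC 0.72, against -0.05 over all genes tested). *Sox4* had 340 ± 38.9 CPM in control and 476 ± 260 CPM in RarαDN libraries (n = 4 each, log2FC 0.49, adjusted p = 0.483 by edgeR). *Sox11*, a partner of *Sox4* in neuronal differentiation, had 298 ± 46.8 and 165 ± 73.0 CPM (log2FC -0.86, adjusted p = 0.161 by edgeR). At E13.5, *Sox11* rose, as the 1 gene called of 8 tested (median log2FC 0.70, against 0.06 over all genes tested, of which 2.78% were called higher), from 146 ± 25.2 CPM in control (n = 4) to 294 ± 41.4 CPM in RarαDN libraries (n = 3, log2FC 1.01, standard error 0.18, adjusted p = 0.0102 by edgeR). *Sox4* had 145 ± 35.4 and 185 ± 8.09 CPM at E13.5 (log2FC 0.35, adjusted p = 0.323 by edgeR).

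Transcription factors that act before or together with SoxE genes in the neural crest included several that rose with *Sox9* at E11.5. Of 10 tested, 5 were higher with RarαDN and 0 lower (median log2FC 1.79), against 3.07% of all genes tested called higher and 2.93% lower. *Msx2* rose from 1.99 ± 0.504 to 128 ± 44.8 CPM (n = 4 each, log2FC 6.0, standard error 0.38, adjusted p = 1.56e-05 by edgeR). *Pax3*, which acts with SOX10 on melanocyte genes, rose from 1.06 ± 1.02 to 118 ± 29.1 CPM (log2FC 6.74, standard error 0.57, adjusted p = 0.000111 by edgeR). *Tfap2b* rose from 32.1 ± 6.12 to 133 ± 40.7 CPM (log2FC 2.05, standard error 0.29, adjusted p = 0.00229 by edgeR). *Foxd3*, a marker of crest progenitors and glia, had 62.5 ± 35.3 and 161 ± 98.7 CPM (log2FC 1.36, adjusted p = 0.191 by edgeR).

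At E13.5, 1 of 6 tested factors of this list was higher and 0 were lower (median log2FC 0.07), against 2.78% of all genes called higher and 5.55% lower. The one called was *Ets1*, which rose from 60.4 ± 7.82 CPM (n = 4) to 124 ± 31.7 CPM (n = 3, log2FC 1.04, standard error 0.21, adjusted p = 0.0183 by edgeR). *Tfap2b* had 1.86 ± 1.24 CPM in control and no count in any RarαDN library, at least 16.1-fold lower against a floor of 3 counts over the group, with an edgeR adjusted p of 0.0868. *Msx2* had no count in any E13.5 library. *Pax3* had 0.0887 ± 0.105 CPM in E13.5 control and no count in RarαDN libraries. Levels of the 2 factors that rose the most at E11.5 were thus at or near 0 at E13.5.

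Genes known to be regulated by SOX10 did not move together at E11.5. In the enteric and autonomic list, 0 of 6 tested rose and 3 fell (median log2FC -3.67), where 3.07% of all genes rose and 2.93% fell. *Chrna3* and *Chrnb4*, nicotinic receptor subunits, fell from 144 ± 54.9 to 0.129 ± 0.129 CPM (log2FC -10.23, adjusted p = 1.17e-05 by edgeR) and from 100.3 ± 14.9 to 1.03 ± 1.90 CPM (-6.64, 0.00435). *Ednrb*, the endothelin receptor of enteric progenitors, fell from 634 ± 21.3 to 388 ± 31.8 CPM (n = 4 each, log2FC -0.71, standard error 0.15, adjusted p = 0.0161 by edgeR). In the melanocyte list, 4 of 4 tested rose and 0 fell (median log2FC 6.68, against the same 3.07% and 2.93%). *Dct* and *Pmel*, both pigment genes, rose from 8.43 ± 3.07 to 722 ± 260 CPM and from 8.36 ± 3.99 to 1137 ± 415 CPM (adjusted p = 1.56e-05 and 1.75e-05 by edgeR). *Mitf*, the master regulator of melanocytes, rose from 5.38 ± 1.16 to 54.5 ± 16.5 CPM (log2FC 3.33, standard error 0.35, adjusted p = 0.000371 by edgeR).

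In the Schwann cell and glia list at E11.5, 2 of 9 tested rose, 1 fell and 6 did not pass (median log2FC 0.14), where 3.07% of all genes rose and 2.93% fell. *Mbp*, a myelin gene with other transcripts outside myelin, rose from 5.02 ± 1.22 to 124 ± 48.0 CPM (n = 4 each, log2FC 4.62, adjusted p = 0.000111 by edgeR). *Pmp22*, a membrane gene of peripheral myelin, rose from 8.03 ± 4.59 to 33.1 ± 17.5 CPM (log2FC 2.04, adjusted p = 0.0491 by edgeR). *Cnp*, also a myelin gene, fell from 342 ± 30.5 to 159 ± 17.4 CPM (log2FC -1.10, standard error 0.16, adjusted p = 0.00359 by edgeR).

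At E13.5, the enteric and autonomic list had 2 of 6 tested higher and 0 lower (median log2FC 0.71), against 2.78% of all genes called higher and 5.55% lower. *Ednrb* rose from 326 ± 79.6 CPM (n = 4) to 1004 ± 145 CPM (n = 3, log2FC 1.62, standard error 0.19, adjusted p = 0.00472 by edgeR), and *Chrnb4* rose from 48.8 ± 11.3 to 93.2 ± 18.3 CPM (0.93, adjusted p = 0.0386 by edgeR). Both had fallen at E11.5. *Chrna3* had 143 ± 16.1 and 185 ± 49.1 CPM (log2FC 0.37, adjusted p = 0.283 by edgeR). In the Schwann cell and glia list, 0 of 8 tested rose and 1 fell (where 5.55% of all genes fell), namely *Pmp22*, from 57.7 ± 10.49 to 21.7 ± 5.84 CPM (log2FC -1.41, standard error 0.28, adjusted p = 0.0161 by edgeR). *Pmp22* and *Sox9* were both among the 49 genes called higher at E11.5 and lower at E13.5. Of the melanocyte list only *Mitf* was tested at E13.5, with 0.671 ± 0.831 and 2.18 ± 1.94 CPM (log2FC 1.69, adjusted p = 0.579 by edgeR), and the summed level of the list was 0.411 to 4.59 CPM in the E13.5 libraries.

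Cartilage genes that SOX9 activates were described for *Sox9* in the same way. At E11.5, 1 of 6 tested rose, 0 fell and 5 did not pass (median log2FC 0.87), where 3.07% of all genes rose and 2.93% fell. The one called was *Col2a1*, the type II collagen gene, which rose from 31.2 ± 20.9 to 128 ± 70.6 CPM (n = 4 each, log2FC 2.04, standard error 0.53, adjusted p = 0.0479 by edgeR). Its call was lost under 10 of 22 other settings. *Col9a2* had 27.4 ± 6.39 and 9.12 ± 4.69 CPM, with the opposite sign (log2FC -1.58, adjusted p = 0.0884 by edgeR). At E13.5, where *Sox9* fell, edgeR called 0 of 5 tested (median log2FC -0.22), where 2.78% of all genes rose and 5.55% fell, with 1 at an unadjusted p under 0.05, 0 called by DESeq2, 0 by limma-voom and 1 by limma-voom with quality weights. *Col9a2* had 14.0 ± 5.04 CPM in control and 5.25 ± 2.53 CPM in RarαDN libraries (log2FC -1.40, adjusted p = 0.156 by edgeR), and *Col2a1* had 2.72 ± 2.99 and 2.33 ± 1.58 CPM. *Col9a3*, another cartilage collagen gene, had 5.66 ± 7.02 and 7.86 ± 3.11 CPM, with the opposite sign (log2FC 0.47, adjusted p = 0.846 by edgeR).

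**Figure D5:**
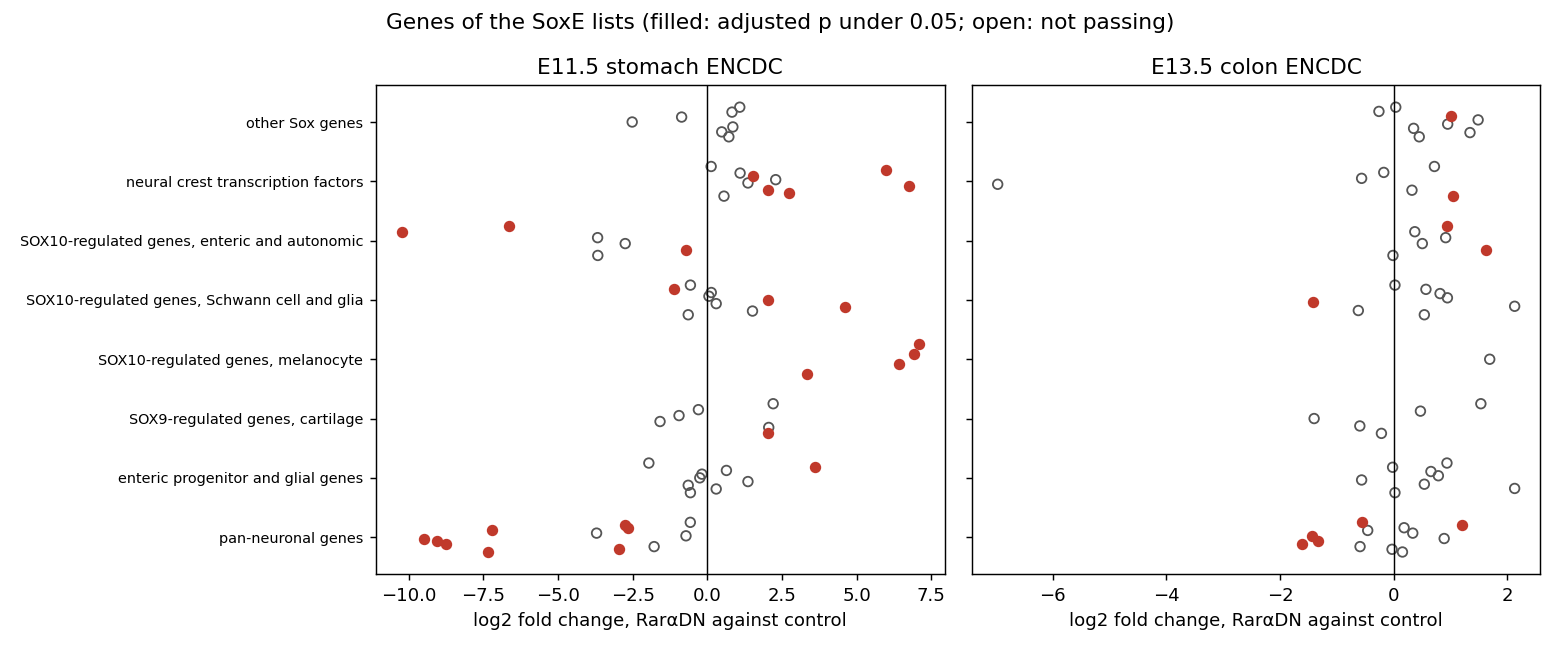
Log2 fold change of each tested gene of the 8 lists at E11.5 (left) and E13.5 (right), filled where the edgeR adjusted p is under 0.05. At E11.5 the 4 melanocyte genes tested lie at the right and the called pan-neuronal genes at the left, and at E13.5 5 of 12 pan-neuronal genes, 2 of 6 enteric and autonomic genes and at most 1 gene of each other list are filled. The fitted value of *Tfap2b* at the far left of E13.5 and that of *Dcx* at E11.5 come from groups without a count and depend on the fit.

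Enteric progenitors and glia are among the cells that normally express *Sox8* and *Sox10*. Of their genes, 1 of 9 tested rose at E11.5 and 0 fell (median log2FC -0.18), against 3.07% of all genes tested called higher and 2.93% lower. The one called was *Entpd2*, an ectonucleotidase of enteric glia, which rose from 0.484 ± 0.332 to 6.07 ± 1.60 CPM (n = 4 each, log2FC 3.62, standard error 0.83, adjusted p = 0.0274 by edgeR). *Nes* had 94.8 ± 12.9 and 148 ± 70.8 CPM (log2FC 0.64, adjusted p = 0.340 by edgeR). At E13.5, edgeR called 0 of 8 tested (median log2FC 0.60), where 2.78% of all genes rose and 5.55% fell, with 1 at an unadjusted p under 0.05, 0 called by DESeq2, 0 by limma-voom and 1 by limma-voom with quality weights. *Nes* was at 133 ± 40.5 and 131 ± 22.4 CPM (-0.02, adjusted p = 0.979 by edgeR) and *Foxd3* at 61.3 ± 31.7 and 41.4 ± 23.2 CPM (-0.56, adjusted p = 0.526 by edgeR).

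Pan-neuronal genes mark differentiated neurons, which lack *Sox10*, and most of those called fell at both ages. At E11.5, 8 of 12 tested fell and 0 rose (median log2FC -3.32), where 2.93% of all genes fell and 3.07% rose. *Elavl4* fell from 319 ± 90.1 to 41.5 ± 13.3 CPM (log2FC -2.94, standard error 0.29, adjusted p = 0.000252 by edgeR), and *Stmn2* and *Stmn3* fell to 0.176 ± 0.221 and 0.0787 ± 0.0909 CPM, from 74.7 ± 61.4 and 48.0 ± 45.1 CPM (adjusted p = 0.000322 and 0.000406 by edgeR). At E13.5, 4 of 12 fell and 1, *Nefm*, rose (median log2FC -0.24), where 5.55% of all genes fell and 2.78% rose. *Uchl1* fell from 531 ± 91.2 CPM (n = 4) to 196 ± 5.35 CPM (n = 3, log2FC -1.44, standard error 0.16, adjusted p = 0.00355 by edgeR), *Stmn2* from 849 ± 121 to 277 ± 95.3 CPM (-1.61, 0.00824) and *Stmn3* from 305 ± 66.5 to 121 ± 37.0 CPM (-1.34, 0.0121). *Elavl4* had 349 ± 36.6 and 342 ± 23.8 CPM (log2FC -0.03, adjusted p = 0.929 by edgeR). Over the 15 libraries, the summed pan-neuronal level had an r of -0.894 with *Sox10*, -0.657 with *Sox8* and -0.584 with *Sox9* on the log2 scale, given as a description since the libraries share groups and depth.

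Of the lists for other cell types, only the leukocyte and macrophage list had summed levels that separated the groups at E11.5. Leukocyte and macrophage genes (10 of 11 in the table, none at 0 in either group) summed to 0.550 to 22.0 CPM in E11.5 control and 37.3 to 204 CPM in E11.5 RarαDN libraries, which did not overlap. In this list 2 of 7 tested, *C1qa* and *C1qb*, rose, where 3.07% of all genes rose and 2.93% fell. In RarαDN replicates 1 to 4 the sums were 93.6, 204, 37.3 and 174 CPM, beside *Sox9* at 26.4, 200.2, 132 and 131 CPM. Mesenchyme and smooth muscle genes (12 of 12 in the table, none at 0) summed to 115 to 323 CPM in control and 268 to 513 CPM in RarαDN libraries, and 1 of 8 tested, *Tagln*, rose (against the same 3.07% and 2.93%). Epithelial genes (6 of 6, none at 0) summed to 3.67 to 41.7 and 5.35 to 25.5 CPM. Endothelial genes (8 of 11 in the table, *Cdh5* at 0 in both groups, *Tie1* at 0 in control, *Pecam1* and *Cldn5* at 0 with RarαDN) summed to 35.8 to 75.4 and 9.30 to 44.0 CPM, with 1 of 4 tested higher and 3 lower (against the same 3.07% and 2.93%). Over the 15 libraries, on the log2 scale, *Sox9* had an r of 0.741 with the summed mesenchyme and smooth muscle level. The r was 0.681 with the leukocyte, 0.460 with the epithelial and 0.0610 with the endothelial level. Among the lists above, r was 0.717 for cartilage, 0.672 for melanocyte and 0.641 for neural crest transcription factor genes. It was 0.524 for enteric progenitor and glial, 0.427 for Schwann cell and glia, 0.334 for other Sox and -0.683 for enteric and autonomic genes. All these values are given as a description. The part of the other cell types in the *Sox9* values was not tested.

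At E13.5, the mesenchyme and smooth muscle genes (*Lum* at 0 in both groups, *Dcn* at 0 with RarαDN) summed to 146 to 329 CPM in control and 68.0 to 145 CPM in RarαDN libraries, without overlap. Of 8 tested, *Col1a2* and *Des* fell and 6 did not pass, where 5.55% of all genes fell and 2.78% rose. *Col3a1* had 14.6 ± 7.96 and 20.6 ± 3.18 CPM, with the opposite sign (adjusted p = 0.567 by edgeR), and for *Pdgfra* and *Myh11*, both too low to be tested, every RarαDN library lay above every control library. The same held for 12.7% of all genes tested at E13.5. Leukocyte genes (*Ptprc* at 0 in both groups, *Csf1r* at 0 in control, *Cx3cr1* at 0 with RarαDN) summed to 1.85 to 14.5 and 1.35 to 3.18 CPM, epithelial genes (*Cdh1* and *Cldn6* at 0 in both groups, *Krt19* at 0 in control) to 0.244 to 10.4 and 1.43 to 6.65 CPM, and endothelial genes to 10.7 to 28.2 and 13.7 to 19.7 CPM, so each of these overlapped. Erythroid genes summed to 13 to 1900 CPM in control and 0.450 to 37.2 CPM in RarαDN libraries. *Sox9* had 21.7 CPM in the control library lowest in erythroid genes and 17.8 CPM in the highest. The part of mesenchymal and erythroid cells in the *Sox9* values was not tested.

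Finally, the genes whose pattern was most like each SoxE gene were found among 13411 genes by Pearson's r of log2 CPM over the 15 libraries, and again after each group's mean was subtracted. For *Sox9*, *Pik3ip1*, *Ccnd3* and *Ccnd2* had an r of 0.932, 0.923 and 0.914. Since these genes were chosen by likeness over the same libraries, their differences between groups follow in part from that choice and are given as a description. *Ccnd3*, which encodes a D-type cyclin, was at 383 ± 2.81 and 604 ± 55.6 CPM at E11.5 (log2FC 0.66, adjusted p = 0.0236 by edgeR) and 396 ± 64.6 and 226 ± 26.3 CPM at E13.5 (-0.81, 0.0161). *Ccnd2*, another D-type cyclin, had 556 ± 78.8 and 841 ± 310 CPM at E11.5 (log2FC 0.60, adjusted p = 0.271 by edgeR) and fell from 463 ± 35.4 to 128 ± 36 CPM at E13.5 (-1.85, 0.00303). *Pik3ip1*, which encodes an inhibitor of PI3 kinase, fell from 35.9 ± 6.60 to 10.6 ± 2.50 CPM at E13.5 (log2FC -1.76, adjusted p = 0.0125 by edgeR) and had 48.9 ± 5.01 and 88.1 ± 35.8 CPM at E11.5 (0.85, 0.173). Within groups, the genes closest to *Sox9* were *1700024F13Rik*, *0610009O20Rik* and *Pias4* (r = 0.904 to 0.913), and 0 of these 3 was called by edgeR at either age.

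For *Sox10*, *Tnrc18*, *Ets1* and *Ip6k1* had an r of 0.942 to 0.948, and of these *Ets1* at E13.5 was the one call. Within groups, *Maz*, *Mtap7d1* and *Smarcd1* followed *Sox10* with an r of 0.976 to 0.981, and their transcripts had a GC content of 62.3, 62.6 and 57.2%. For *Sox8*, *Itga6*, *Ube2h* and *Sdc3* had an r of 0.893 to 0.902, and within groups *Actn4*, *Esyt1* and *Tmem201* had an r of 0.923 to 0.936. At E11.5, edgeR called 0 of these 6 genes, with 1 at an unadjusted p under 0.05, 1 called by DESeq2, 0 by limma-voom and 1 by limma-voom with quality weights, and at E13.5 each of these counts was 0. The highest r within groups was thus found for *Sox10*, the member with the most extreme GC content. The genes closest within groups to *Sox8* had a GC content of 55.4 to 59.1%, and those closest to *Sox9* 48.4 to 60.8%. The part of GC content in these r values was not tested.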

How the data were processed

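RNA of sorted ENCDC was amplified by SMART, tagmented with Nextera XT and sequenced on an Illumina HiSeq. The authors aligned the reads with RUM and deposited raw counts per RefSeq transcript for the 15 libraries, together with quantile-normalized log2 values and columns of their own comparisons (fold changes and p-values), which were not used here. For the alignment, the genome build was not given in the sources used here.

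One transcript per gene, the one the authors marked as best, was kept (17090 of 22365 transcripts). Counts were filtered with filterByExpr, scaled by TMM and tested with edgeR 4.0.16 (robust quasi-likelihood F test, 1 fit per age, Benjamini-Hochberg adjusted p under 0.05, R 4.3.3), with an interaction term in a fit of all 4 groups for the difference between ages. Alternatives included DESeq2 1.42.0, limma-voom (limma 3.58.1), other scalings and filters, and leaving out each library. Printed CPM were TMM-scaled within the age. The comparison of groups across ages, levels per kb and shares used 1 scaling over the 15 libraries, with lengths and GC content from GENCODE M21 (GRCm38, 97.8% of genes matched by RefSeq accession). Sampling error was given as exact Poisson intervals (95%). The edgeR test of each age was tried on simulated counts, whereas the interaction term and the other steps were not.

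Groups came from the sample labels. SoxE genes and gene lists were chosen with earlier results of these data known. From each list, the text names up to 3 genes with the lowest adjusted p among those called at an age, or the 2 most abundant where none was, and for each SoxE gene the 3 most similar genes by each measure. *Ret*, *Nefm*, *C1qa*, *C1qb*, *Tagln*, *Col1a2*, *Des* and the genes listed at 0 were named after their values were seen. A summed level of further marker genes is not reported here.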

Additional observations from a re-analysis of the deposited data

Results flagged for a closer look

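The effect of RarαDN on *Sox9* differed between the stomach at E11.5 and the colon at E13.5, by a test of the difference itself. In stomach ENCDC the log2 fold change was 3.12, in colon ENCDC it was -3.49, and the estimated difference was -6.65 (SE 0.86, edgeR adjusted p = 0.000155), with all 4 RarαDN libraries above all controls at E11.5 and all 3 below all controls at E13.5. The difference was between -7.18 and -6.17 with each library left out in turn and between -7.69 and -6.52 under the other alternatives, and its call held under all 29. Age, organ, Cre driver and reporter cannot be told apart here. 1 library stood far from the rest of its group. The ratio of *Sox8* to *Sox9* per transcript length was 5.59, 1.55, 1.36 and 1.36 in E11.5 RarαDN replicates 1 to 4, with replicate 1 apart, and 16.8 to 21.0 in the E11.5 control libraries. *Sox9* itself had 26.4, 200.2, 132 and 131 CPM in these 4 libraries, a gap that did not pass the same threshold. In all, 30 combinations of a SoxE level, share, sum or ratio with a group of 4 libraries were checked, and chance alone flags about 1 in 20.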

How the results depend on the processing

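At E11.5, 745 genes were called, against 1363 by DESeq2, 1999 by limma-voom with quality weights and 350 with a replicate block. Leaving out each library gave 324 to 1143 (324, 351 and 363 without control replicate 1, 3 or 4, and 1143 without RarαDN replicate 1). At E13.5, 1007 were called, against 1723 by DESeq2, 1788 with quality weights, 649 in a fit of all 4 groups, 206 with the transcript length trend removed and 212 without both hemoglobin-rich controls. Leaving out each library gave 25 to 1258 (25, 44 and 324 without RarαDN replicate 1, 2 or 3, and 462 without control replicate 3). With the GC trend removed, 184 of 833 calls (22.1%) were higher at E13.5, against 336 of 1007 (33.4%). The causes were not tested.

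*Sox9* at E11.5 kept its call under all 22 alternatives. At E13.5 its log2 fold change was -4.03 to -2.99 with each library left out (adjusted p 0.0277 to 0.0828) and -3.44 without both hemoglobin-rich controls (0.110), and the fit over fewer libraries lost the call in 5 cases. The share of *Sox9* without division by length was 2.93% in E11.5 control, 14.1% in E11.5 RarαDN and 12.1% in E13.5 control libraries. *Sox10* at E13.5 was called by DESeq2 (1.32), with the block (1.51) and with the GC trend removed (1.76). *Sox10* at E11.5 was called under no alternative.

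The estimates of *Sox8* at E13.5 lay near 0, and turned sign without scaling (0.0120) and with the block (0.0193), and ranged from -0.25 to 0.0790 with each library left out. Its difference between ages was -0.22 with the length trend removed and -0.0346 without both hemoglobin-rich controls. The difference of *Sox10* between ages ranged from -0.20 to 0.81 with each library left out.

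Of 22 alternatives each, the E11.5 calls of *Ednrb*, *Pmp22* and *Entpd2* were lost under 6, 8 and 5, and the E13.5 calls of *Chrnb4*, *Ets1*, *Sox11*, *Stmn3*, *Pmp22* and *Stmn2* under 11, 7, 5, 5, 4 and 1. Signs of uncalled list genes at E13.5 also turned. *Mbp* was 0.10 by limma-voom, 0.51 with the length trend removed, 1.33 without both hemoglobin-rich controls and -0.97 to 0.51 with each library left out. *Col2a1* was 1.18 by limma-voom, 0.61 with quality weights, 1.95 with the block, 0.31 with the GC trend removed and -0.91 to 0.35 with each library left out. *Elavl4* was 0.0565 without scaling, 0.0938 without both hemoglobin-rich controls and -0.0985 to 0.0228 with each library left out. *Nes* was 0.0579 without scaling, 0.0140 by limma-voom, 0.18 with the block, 0.0931 with the GC trend removed and -0.20 to 0.15 with each library left out. *Sox4* was -0.0302 with the length trend removed, *Foxd3* 0.0767 with the GC trend removed and *Col9a3* -0.43 without both hemoglobin-rich controls.

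Control and RarαDN libraries share replicate numbers. The deviations of same-numbered libraries had an r of -0.196 to 0.236 at E11.5 and 0.038 to 0.046 at E13.5. With so few libraries, these values cannot decide whether the numbers pair them. With the replicate block, *Sox9* was at 2.88 (adjusted p = 0.0409 by edgeR) and -3.92 (0.0493), and the difference between ages at -6.73. The length and GC trends and the fit without both hemoglobin-rich controls were added after seeing the data. Depth limits *Sox9* in E13.5 RarαDN libraries, where 1 to 27 counts were found.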
